A study of Homo sapiens with 12 samples.

Results

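Lipid droplet and lipolysis genes were examined as a set of 10 members, chosen by symbol from the rows of the deposited count files: PLIN2, PLIN3, HILPDA, G0S2, PNPLA2, LIPE, MGLL, LPIN1, SCARB1 and CPT1A. All 10 were found among 23106 symbols. The RNA came from RCC4, an established human clear cell renal cell carcinoma (ccRCC) line that lacks functional VHL, so that HIF-1α and HIF-2α are not degraded in ordinary oxygen. All cells were reverse transfected with pools of siRNA at 2 nM in total and harvested at 48 h. Control siRNA was given at 2 nM, HIF1A siRNA at 1 nM with 1 nM control siRNA, HIF2A siRNA (against EPAS1, the gene of HIF-2α) at 1 nM with 1 nM control siRNA, and the double knockdown received 1 nM of each HIF siRNA and no control siRNA. Each condition had 3 replicates, and the 12 libraries came from this single line. The design asks which of these genes depend on HIF-1α, on HIF-2α or on both. The study left the double knockdown out of its own analysis.

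Neutral lipid is stored in droplets with a protein coat, and clear cell tumors owe their pale cytoplasm to stored lipid and glycogen. Perilipins 2 and 3, encoded by PLIN2 and PLIN3, coat the droplets of non-adipose cells. Triglyceride is broken down in turn by PNPLA2 (adipose triglyceride lipase), LIPE (hormone-sensitive lipase) and MGLL (monoglyceride lipase). HILPDA and G0S2 are small proteins that bind and inhibit PNPLA2. LPIN1 makes the diglyceride from which triglyceride is built, SCARB1 takes up cholesteryl ester from lipoproteins, and CPT1A commits long-chain fatty acids to oxidation in mitochondria. HIF proteins bind DNA at a short core, written ACGTG or GCGTG.

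The promoters of the coat genes are shown because PLIN2 fell in the double knockdown while PLIN3 passed no test. They are RefSeq sequences of build GRCh38.p14, from 250 bases before the annotated start to 5 bases after it, 5′ to 3′ on the gene's own strand, with capitals where the core was found on either strand (CACGT or CACGC when read from the other strand). PLIN2 lies on the minus strand at chr9:19127488-19127742 and PLIN3 on the minus strand at chr19:4867663-4867917.
PLIN2: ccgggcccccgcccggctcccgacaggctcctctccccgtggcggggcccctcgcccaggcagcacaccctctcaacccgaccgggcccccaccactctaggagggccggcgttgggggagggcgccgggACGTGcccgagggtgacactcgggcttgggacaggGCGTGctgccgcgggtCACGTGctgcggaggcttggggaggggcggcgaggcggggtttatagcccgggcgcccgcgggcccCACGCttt
PLIN3: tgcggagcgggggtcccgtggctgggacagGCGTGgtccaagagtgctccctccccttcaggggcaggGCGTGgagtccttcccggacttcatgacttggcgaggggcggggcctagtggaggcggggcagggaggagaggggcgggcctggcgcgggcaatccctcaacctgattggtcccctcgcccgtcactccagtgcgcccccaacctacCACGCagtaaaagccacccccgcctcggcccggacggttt
PLIN2 held 5 matches in its 300-base window (250 bases before the start and 50 after), of which the pair at 69 and 68 bases before the start overlap as the palindrome CACGTG. PLIN3 held 3 matches. RefSeq windows were at hand for 7 of the 10 members, so that HILPDA, MGLL and SCARB1 were not searched. Of the 7, 5 held the core, among them G0S2, which was all but silent in these cells. Of 27305 such windows, 48.4% held it, so that a match is common and by itself says nothing of binding.

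Total counts per library ran from 13263168 to 20451433. HIF1A mRNA in the pairs was 12.8 to 31.2% of control with HIF1A siRNA and 20.5 to 55.7% in the double knockdown, and EPAS1 mRNA was 5.73 to 8.93% with HIF2A siRNA and 4.38 to 8.49% in the double knockdown. EPAS1 was also lower with HIF1A siRNA in every pair, at 62.3 to 78.6% of control, which did not pass the test (edgeR adjusted p = 0.28), and its part in the results with HIF1A siRNA was not tested. In the other direction, HIF1A mRNA with HIF2A siRNA was at 92.2, 199 and 122% of control in the pairs. That change, 0.37 on the log2 scale, did not pass the test (edgeR adjusted p = 0.931), and its part in the results with HIF2A siRNA was not tested. All 6 renal epithelial markers had at least 10 counts in every library, with summed levels of 1220 to 1670 CPM (counts scaled to the library total). Among them CA9, which the study calls a HIF target and ccRCC marker, changed by -3.64 on the log2 scale with HIF1A siRNA. It changed by -4.16 in the double knockdown, where KRT18 rose by 0.49. The sum includes CA9 and so partly follows HIF1A siRNA. With HIF2A siRNA CA9 was at 124 to 143% of control in the pairs, which did not pass the test (edgeR adjusted p = 0.745). The 4 markers of differentiated proximal tubule summed to 0.589 to 2.3 CPM. Of the adipocyte markers, ADIPOQ, LEP and CIDEA had no count in any library, and the 5 together stayed at or below 0.752 CPM. The endothelial sum stayed at or below 0.432 CPM, and of the immune markers PTPRC and CD3E were at 0 while CD68 stood at 32.6 to 65.1 CPM. The RNA is of bulk cells, so fewer cells expressing a gene and less RNA per cell cannot be told apart.

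The members spanned a wide range of expression in control cells. Scaled to transcript length, PLIN2 stood at 124 ± 11.8 CPM per kilobase (mean ± SD, n = 3), MGLL at 111 ± 14.7 and PLIN3 at 78.9 ± 11.3. PNPLA2 followed at 42.1 ± 2.11, its inhibitor HILPDA at 29.3 ± 10.3, SCARB1 at 11.4 ± 1.78 and LPIN1 at 6.70 ± 2.83. CPT1A at 0.534 ± 0.132 and LIPE at 0.265 ± 0.0921 were low. The libraries of PLIN2 and MGLL overlapped, as did those of SCARB1 and LPIN1, and no other neighbors in this order did. The droplet coat and the last lipase were thus the abundant transcripts, and hormone-sensitive lipase and carnitine palmitoyltransferase the scarce ones. G0S2 had no count in 11 libraries and 1 count in the other, and 3 counts, the limit that a count of 0 allows, correspond to 0.146 to 0.226 CPM. A total of 9 members therefore entered the tests, and G0S2 did not.

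HILPDA followed HIF1A siRNA and not HIF2A siRNA. Its level in replicates 1, 2 and 3 was 51.7, 43.5 and 24.4 CPM with control siRNA and 21.5, 16.2 and 9.63 CPM with HIF1A siRNA. With HIF2A siRNA it was 53.0, 46.2 and 24.1 CPM, and in the double knockdown 18.6, 14.7 and 11.1 CPM. Replicate 3 was lowest in every condition, yet each pair lost a like share, so that 37.9 to 42.1% of control remained with HIF1A siRNA, 34.6 to 46.3% in the double knockdown and 98.5 to 106% with HIF2A siRNA. All HIF1A siRNA and double knockdown libraries lay below all control libraries, and those with HIF2A siRNA overlapped the controls throughout.

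By edgeR, HILPDA changed by -1.34 ± 0.132 on the log2 scale with HIF1A siRNA (± SE, Benjamini-Hochberg adjusted p = 0.000103). It was the only one of the 9 members called (adjusted p under 0.05) in that comparison, in which 1.17% of 12830 genes were. With HIF2A siRNA the change was 0.04 (95% interval -0.23 to 0.32, edgeR adjusted p = 0.987), and HIF1A siRNA against HIF2A siRNA gave -1.38 ± 0.132 (edgeR adjusted p = 6.45e-05). HILPDA was again the only member called between the single knockdowns, beside 1.5% of all genes. In the double knockdown the change was -1.39 ± 0.133 against control (edgeR adjusted p = 8.54e-06) and -0.05 against HIF1A siRNA alone (95% interval -0.34 to 0.24, edgeR adjusted p = 0.93), with more HIF1A mRNA left than in the single knockdown. The calls rest on the pairing: without the replicate block the change with HIF1A siRNA was -1.34 ± 0.386, and over 20 alternatives its adjusted p ran from 6.05e-15 with DESeq2 to 0.565 without the block. HILPDA and MGLL are on lists of HIF-1 and HIF-2 genes that the study chose on these same libraries, which are no independent evidence of their direction.

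**Figure D1:**
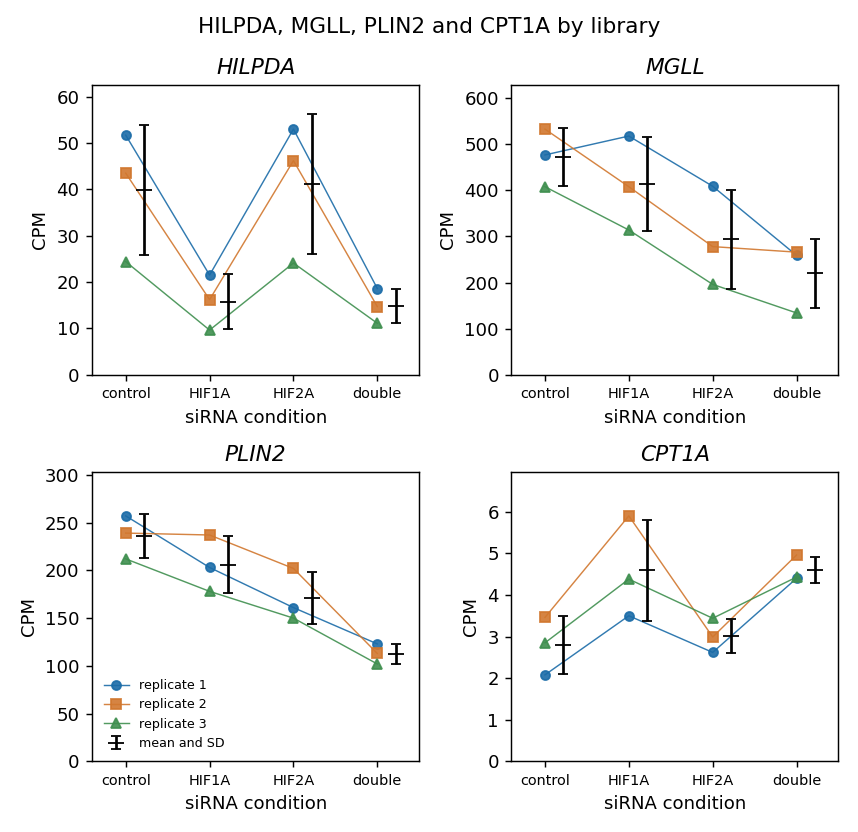
Level in CPM (vertical axes, from 0) of HILPDA, MGLL, PLIN2 and CPT1A in each library by siRNA condition, with lines joining replicates of the same number and black bars for the mean ± SD (n = 3). HILPDA drops with HIF1A siRNA and in the double knockdown, PLIN2 is at 102 to 123 CPM in the double knockdown against 212 to 257 CPM in controls, and CPT1A, which passed no test, is at 3.50 CPM or more in every library that received HIF1A siRNA.

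MGLL, the enzyme that frees the last fatty acid, was below control in every pair with HIF2A siRNA, short of the test's threshold, and fell in the double knockdown. Its levels were 477, 533 and 408 CPM with control siRNA and 518, 408 and 314 CPM with HIF1A siRNA. They were 409, 278 and 196 CPM with HIF2A siRNA and 259, 266 and 134 CPM in the double knockdown. The double knockdown libraries all lay below the controls, whereas 1 of the HIF2A siRNA libraries, replicate 1, reached the lowest control. In the pairs, HIF2A siRNA left 85.7, 52.2 and 48.2% of control, so replicate 1 kept more MGLL than the other replicates did. HIF1A siRNA left 76.5 to 109%, higher than control in replicate 1 alone, and the double knockdown 33.0 to 54.4%.

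The change of MGLL with HIF2A siRNA was -0.73 ± 0.145 (edgeR adjusted p = 0.118, unadjusted 0.000237), short of the threshold. None of the 9 members was called in that comparison, in which 0.0857% of all genes were. A total of 2 members, MGLL and PLIN2, had an unadjusted p under 0.05, as did 690 of all 12830 genes. DESeq2 called 1 member, MGLL, and 58 genes in all. Over 20 alternatives the adjusted p of MGLL ran from 0.000876 with DESeq2 to 1.0, with calls also when no filter was used, without replicate 1 (-0.97) and without control replicate 1 (-0.95). HIF1A siRNA changed MGLL by -0.22 (95% interval -0.54 to 0.09, edgeR adjusted p = 0.842), and the single knockdowns differed by 0.51 ± 0.144 (edgeR adjusted p = 0.146), which 7 of 20 alternatives called.

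In the double knockdown MGLL changed by -1.17 ± 0.152 against control (edgeR adjusted p = 0.000173), a call lost without the block, with adjusted p from 1.79e-11 to 0.125 over 22 alternatives. Against HIF1A siRNA it changed by -0.94 ± 0.151 (edgeR adjusted p = 0.00462), a call that was lost without replicate 3, without double knockdown replicate 3 and without the block, over a range of adjusted p from 6.61e-09 to 0.875 in 22 alternatives. Against HIF2A siRNA the change was -0.42 ± 0.151 (edgeR adjusted p = 0.153), and the double knockdown was lower in all 3 pairs, at 63.5 to 95.7% of HIF2A siRNA. The interaction, which is the departure from the sum of the single changes, was -0.20 (95% interval -0.65 to 0.26, edgeR adjusted p = 0.999).

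PLIN2, the main droplet coat of non-adipose cells, fell when the siRNAs were combined. Its levels were 257, 239 and 212 CPM with control siRNA and 123, 113 and 102 CPM in the double knockdown, which left 47.9, 47.4 and 48.1% in the pairs. The single knockdowns lay between them, at 203, 237 and 178 CPM with HIF1A siRNA and 161, 202 and 150 CPM with HIF2A siRNA. Every pair was lower with each siRNA, at 79.3 to 99.1% of control with HIF1A siRNA and 62.7 to 84.4% with HIF2A siRNA. The double knockdown overlapped neither the controls nor either single knockdown. The HIF2A siRNA libraries lay below all controls, and those with HIF1A siRNA overlapped them.

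Neither single knockdown changed PLIN2 past the threshold, with -0.20 ± 0.12 for HIF1A siRNA (edgeR adjusted p = 0.827) and -0.47 ± 0.12 for HIF2A siRNA (edgeR adjusted p = 0.355, unadjusted 0.00199). Over 20 alternatives the change with HIF2A siRNA stayed negative, from -0.60 to -0.35. It was called in none of them, with adjusted p by edgeR or DESeq2 no lower than 0.0647. The double knockdown changed it by -1.07 ± 0.109 (edgeR adjusted p = 1.47e-05), a call that held in all 22 alternatives with values from -1.13 to -0.99. PLIN2, MGLL and HILPDA were the 3 of 9 members called in the double knockdown, all lower, beside 10.3% of 13000 genes called there. The median change of the 9 members was -0.049, against 0.0048 over all genes. Against HIF1A siRNA, PLIN2 changed by -0.86 ± 0.108 (edgeR adjusted p = 0.000547), and PLIN2 and MGLL were the 2 members called beside 1.4% of all genes. Against HIF2A siRNA it changed by -0.60 ± 0.108 (edgeR adjusted p = 0.00463), and PLIN2 and HILPDA were the 2 members called beside 4% of all genes.

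The last of these calls depended on few libraries. PLIN2 against HIF2A siRNA was not called without replicate 3, with the 6 compared libraries alone or without the block, and its adjusted p ran from 2.73e-05 to 0.207 over 22 alternatives. Against HIF1A siRNA it was not called without replicate 3 or without the block, over a range from 8.57e-11 to 0.1. The interaction of PLIN2 was -0.39 ± 0.152 (unadjusted p = 0.0213, edgeR adjusted p = 0.999), and its value kept its sign in 21 alternatives, from -0.60 to -0.17. No member and 0% of 13000 genes had an interaction called by edgeR, 318 genes and 1 member, PLIN2, had an unadjusted p under 0.05, and DESeq2 called 11 genes and no member. In simulated data the edgeR interaction test found 59.3% of changes of 1 or more on the log2 scale, but only 3.8% of smaller ones. The lack of a call for PLIN2 therefore does not show that its single changes add up.

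**Figure D2:**
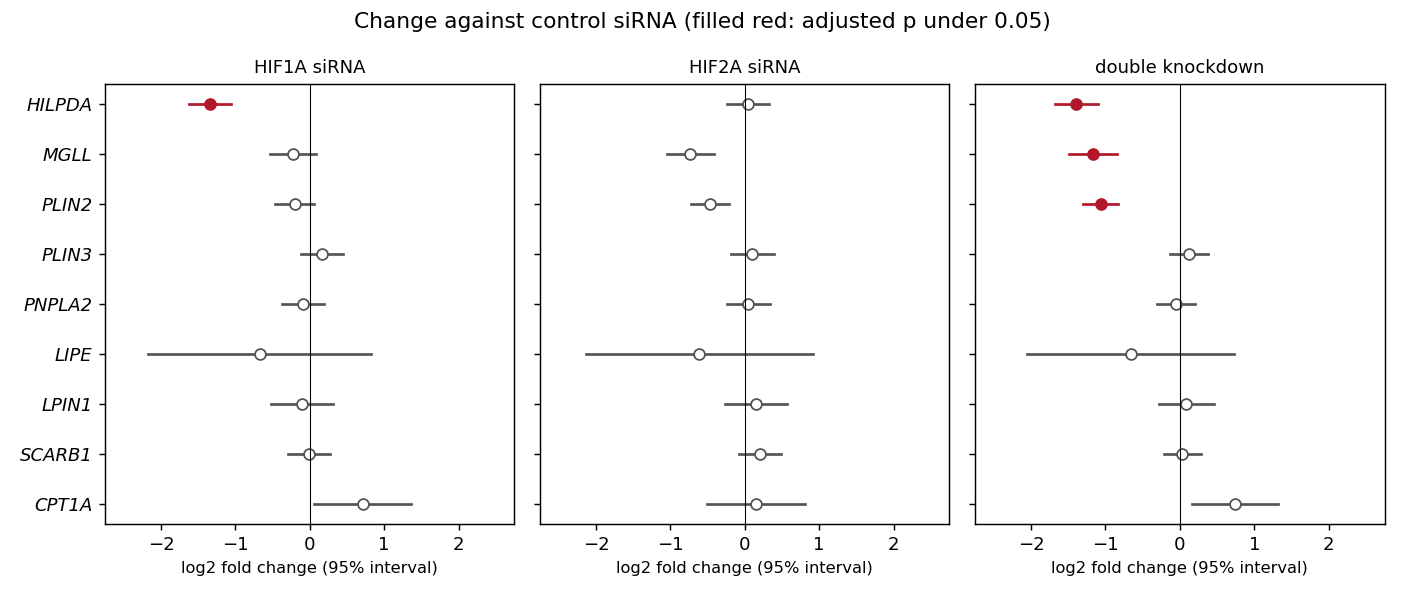
Log2 fold change against control siRNA (horizontal axis) of the 9 members tested, with 95% intervals, for HIF1A siRNA, HIF2A siRNA and the double knockdown, filled red where the edgeR adjusted p was under 0.05. HILPDA alone is filled with HIF1A siRNA, none is with HIF2A siRNA, and HILPDA, MGLL and PLIN2 are filled at -1.39, -1.17 and -1.07 in the double knockdown.

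**Figure D3:**
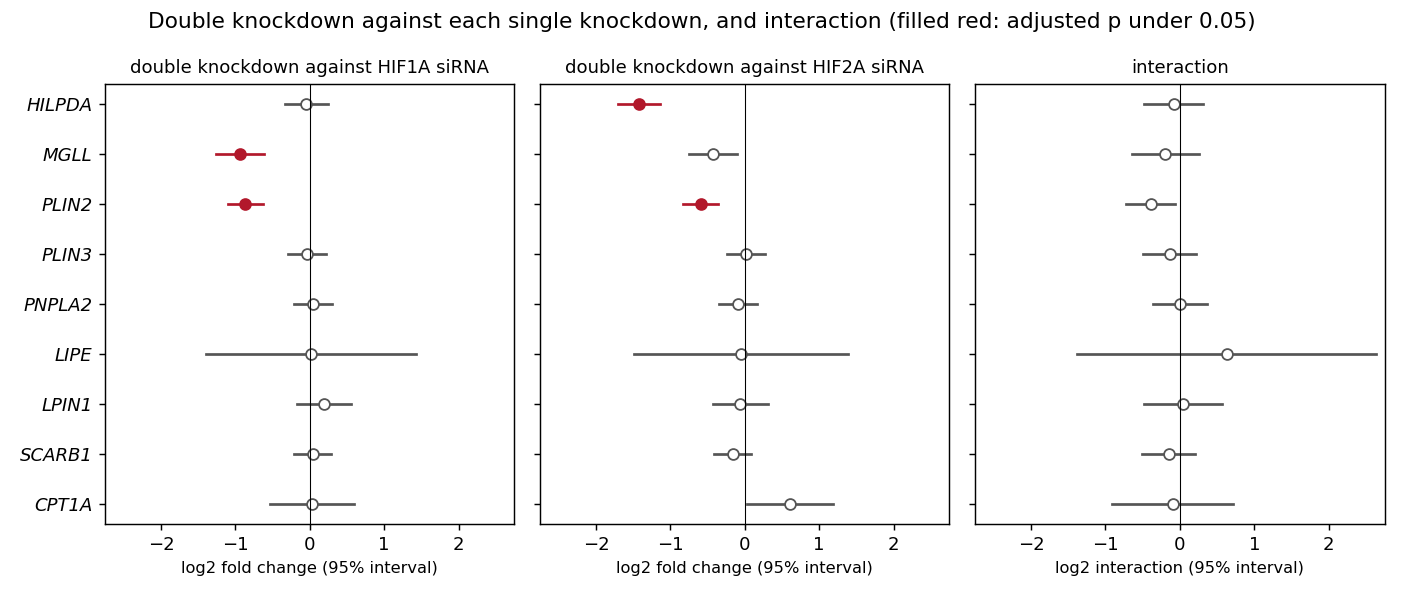
Log2 fold change of the double knockdown against HIF1A siRNA and against HIF2A siRNA, and the log2 interaction of the siRNAs, for the same 9 members with 95% intervals, filled red where the edgeR adjusted p was under 0.05. PLIN2 is lower than with either single siRNA, MGLL only against HIF1A siRNA and HILPDA only against HIF2A siRNA pass the threshold, and no interaction does.

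PLIN3, the other coat protein, did not follow PLIN2. Its levels were 168, 156 and 204 CPM in the controls and 192, 181 and 214 CPM after HIF1A siRNA. After HIF2A siRNA they were 152, 203 and 208 CPM, and in the double knockdown 190, 160 and 224 CPM. The conditions overlapped, and the double knockdown differed from control by 0.12 (95% interval -0.13 to 0.38, edgeR adjusted p = 0.572). Per length, PLIN2 RNA exceeded PLIN3 RNA 1.22- to 1.80-fold in the control libraries. In the double knockdown the same ratio was 0.534 to 0.831, so PLIN3 was the more abundant coat transcript in each of those libraries. With HIF1A siRNA the ratio was 0.977 to 1.54 and with HIF2A siRNA 0.848 to 1.25. In replicate 3 PLIN3 was also the higher with HIF2A siRNA (0.848), while 0.977 with HIF1A siRNA was too near equal to rank. These ratios rest on a single annotated transcript length for each gene.

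PNPLA2, which HILPDA inhibits and which starts triglyceride breakdown, kept a level of 96.2 to 106 CPM in controls, 81.2 to 115 CPM with HIF1A siRNA, 98.0 to 118 CPM with HIF2A siRNA and 92.4 to 103 CPM in the double knockdown. The conditions overlapped, and the change in the double knockdown was -0.05 (95% interval -0.30 to 0.20, edgeR adjusted p = 0.833). The ratio of HILPDA to PNPLA2 per length was 0.700 ± 0.267 in controls and 0.686 ± 0.226 with HIF2A siRNA. It was 0.289 ± 0.0934 with HIF1A siRNA and 0.267 ± 0.0703 in the double knockdown (mean ± SD, n = 3 each). The ratio was lower in every library that received HIF1A siRNA than in every control library.

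LIPE was too scarce to compare. It had 11, 19 and 22 counts in the controls and 3, 12 and 19 after HIF1A siRNA. After HIF2A siRNA it had 15, 12 and 5 counts, and in the double knockdown 8, 10 and 15, so that all conditions overlapped. The 95% interval of its change with the double knockdown, -2.06 to 0.73, spans a fall and a rise. Its exons overlap those of LIPE-AS1 on the other strand in GENCODE v44, and since the methods do not say whether counting used strand, its counts may hold reads of both. PLIN3, PNPLA2, SCARB1 and LPIN1 also overlap an unnamed gene on the other strand, and HILPDA overlaps HILPDA-AS1 on the same strand. None of these partners is in the files under these names.

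LPIN1 differed by replicate number in every condition. It was at 53.9, 63.9, 61.7 and 68.6 CPM in replicate 3 of the control, HIF1A, HIF2A and double knockdown conditions, and at 22.2 to 38.2 CPM in all other libraries. Its changes against control lay between -0.10 and 0.15, with no call (edgeR adjusted p from 0.797 to 0.965). SCARB1 was at 32.4 to 44.4 CPM in controls, 32.8 to 44.1 CPM with HIF1A siRNA, 41.6 to 48.6 CPM with HIF2A siRNA and 37.0 to 43.4 CPM in the double knockdown. It was higher with HIF2A siRNA in all 3 pairs, at 108 to 128% of control, by 0.20 (95% interval -0.08 to 0.49, edgeR adjusted p = 0.94), which did not pass the test.

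**Figure D4:**
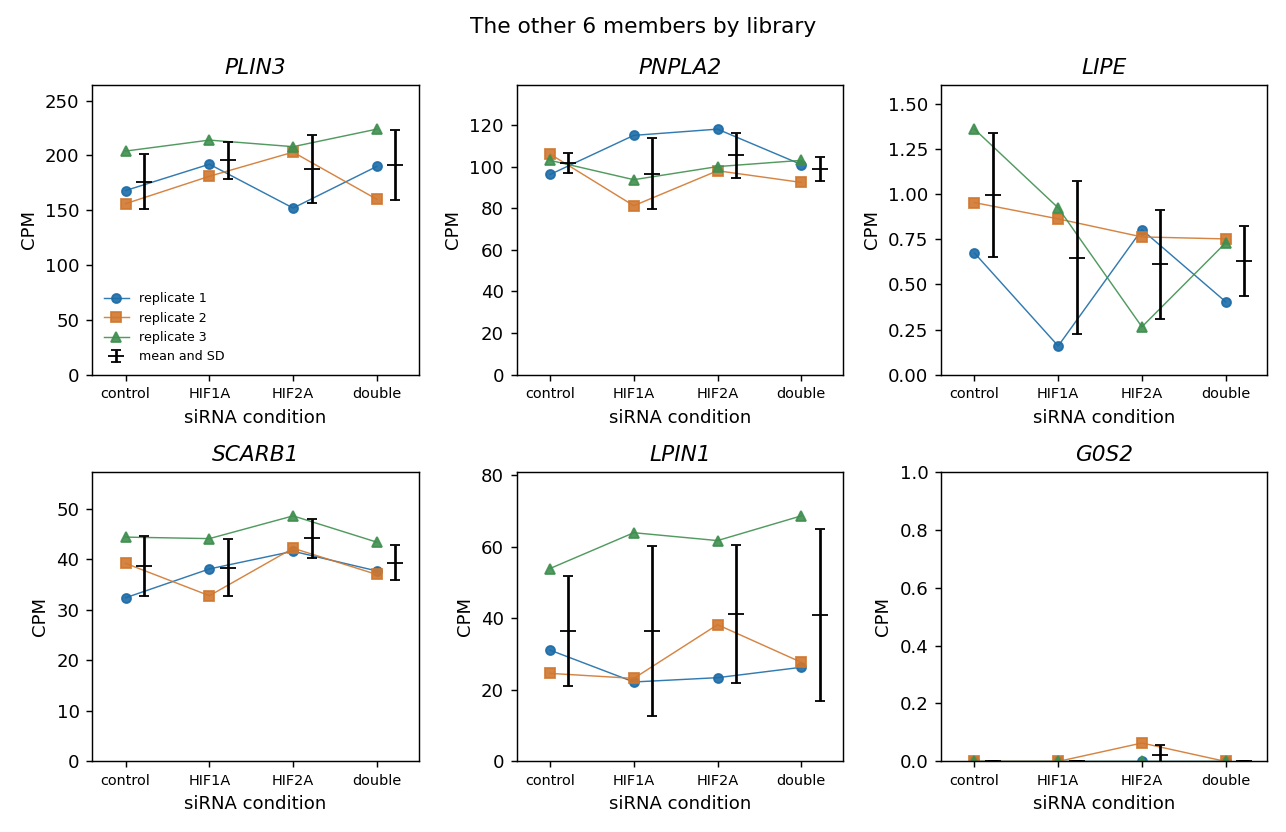
Level in CPM (vertical axes, from 0) of PLIN3, PNPLA2, LIPE, SCARB1, LPIN1 and G0S2 in each library by siRNA condition, with lines joining replicates of the same number and black bars for the mean ± SD (n = 3). Conditions overlap for the first 5 genes, replicate 3 of LPIN1 stands at 53.9 CPM or more in each condition, and G0S2 is at 0 but for 1 count.

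CPT1A, the gate to mitochondrial fatty acid oxidation, was higher in all pairs that received HIF1A siRNA but passed no test. Its levels were 2.08, 3.46 and 2.85 CPM in the controls and 3.50, 5.90 and 4.38 CPM after HIF1A siRNA. After HIF2A siRNA they were 2.62, 2.99 and 3.44 CPM, and in the double knockdown 4.40, 4.96 and 4.43 CPM. The pairs stood at 146 to 161% of control with HIF1A siRNA, 138 to 190% in the double knockdown and 88.1 to 121% with HIF2A siRNA. The HIF1A siRNA and double knockdown libraries lay above all controls, the former by a narrow margin. The change was 0.71 ± 0.299 with HIF1A siRNA (edgeR adjusted p = 0.612, unadjusted 0.0343) and 0.74 ± 0.271 in the double knockdown (edgeR adjusted p = 0.099, unadjusted 0.016). Of 22 alternatives for the double knockdown, only the threshold of 0.1 called CPT1A, and its lowest adjusted p by edgeR or DESeq2 was 0.0672. Only 34 to 91 counts per library stood behind these levels.

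Beyond the members, 78 other lipid genes were listed, of which 59 passed the filter and 16 were called in any comparison. With HIF1A siRNA 1 of the 59 was called beside 1.17% of all genes, and the count ran from 0 to 3 over the alternatives. With HIF2A siRNA none was called by edgeR or DESeq2, and 3 had an unadjusted p under 0.05, as did 690 of all 12830 genes. The gene called with HIF1A siRNA was LIPC, hepatic lipase, at 28.7, 36.9 and 19.3 CPM with control siRNA and 46.1, 52.8 and 30.0 CPM with HIF1A siRNA, a change of 0.61 ± 0.124 (edgeR adjusted p = 0.0296). That call was lost in 9 of 20 alternatives, without replicate 1 or 3 and without the block among them. LIPC rose further in the double knockdown, to 76.5, 80.6 and 48.0 CPM, by 1.28 ± 0.108 against control (edgeR adjusted p = 2.33e-06). Between the single knockdowns, PPARG, a nuclear receptor of fat cell genes, was 0.56 higher with HIF1A siRNA than with HIF2A siRNA (edgeR adjusted p = 0.0475, lost in 11 of 20 alternatives).

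The double knockdown called 14 of the 59 against control, 9 lower and 5 higher, which is 23.7% beside 10.3% of all genes. The members and this list were chosen with earlier results of these data known, so such shares are no test of lipid genes as a set. Among regulators, PPARD, a fatty acid-sensing nuclear receptor, fell by 0.85 on the log2 scale and ANGPTL4, an inhibitor of lipoprotein lipase, fell by 2.15, from 13.2 to 24.9 CPM down to 1.17 to 9.33 CPM. PPARGC1A, a coactivator of mitochondrial genes, rose by 1.10. Among uptake genes, 3 of 9 fell and none rose, namely the lipoprotein receptors VLDLR by -0.69 and LRP1 by -0.73, and the bile acid-binding FABP6 by -0.74. Among lipases, DDHD2 changed by -0.77 and lysosomal LIPA by -0.38, while LIPC was higher.

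Of 18 genes of fatty acid activation and oxidation tested, the double knockdown called 1 lower and 1 higher against control, beside 10.3% of all genes. ACAA2, a mitochondrial thiolase, was lower by -0.60 and SLC25A20, the carnitine carrier that works after CPT1A, higher by 0.81. Of 11 synthesis genes, AGPAT9 (an acyltransferase now named GPAT3) was higher by 0.72. SOAT2, which esterifies cholesterol, went from 31, 21 and 11 counts in controls to 0, 0 and 1. It had 9, 8 and 6 counts with HIF1A siRNA and 6, 19 and 16 with HIF2A siRNA. SOAT2 was thus near the floor, and passed the filter through libraries outside the double knockdown. With at least 10 counts required in every library it was not tested, and 13 genes were called, 8 lower. BSCL2, the seipin of droplet formation, was the 1 of 6 formation genes called, higher by 0.52. Of the 6 other coat genes, only CIDEB passed the filter, and it was not called. The calls of LIPA, SLC25A20 and PPARGC1A were lost in 15, 14 and 10 of 22 alternatives. Those of AGPAT9 and BSCL2 were lost in 8 and 7, and the rest in 6 or fewer. PPARD and DDHD2 were called in all 22 alternatives, whereas the count of 14 fell to 5 without replicate 3, to 6 without replicate 1, to 7 to 9 without any single double knockdown library, to 8 without control replicate 1 or 3 and to 3 without the block, and rose to 19 with the compared libraries alone.

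Against HIF1A siRNA, the double knockdown called 2 of the 59, LIPC higher by 0.67 and PPARD lower by -0.55, beside 1.4% of all genes. That count was 0 without the block, without replicate 1, without replicate 3 or without double knockdown replicate 1, and 5 with the compared libraries alone. Against HIF2A siRNA it called 11, 9 lower and 2 higher, beside 4% of all genes. That count fell to 1 without the block, 2 without replicate 3, 3 with the compared libraries alone and 4 without double knockdown replicate 1 or 2, and any other single library left out gave 5 to 12. Those lower were PPARD, ANGPTL4, DDHD2, LRP1, SOAT2, ACAA2, FABP6, VLDLR and ACADVL (very long-chain acyl-CoA dehydrogenase, by -0.41), and those higher were LIPC by 1.04 and PPARG by 0.43. Of these calls, those of PPARG, ACADVL, PPARD and FABP6 were lost in 17, 15, 14 and 13 of 22 alternatives, and the others in 7 or fewer. SOAT2 was not tested when at least 10 counts were required in every library, and 10 genes were then called, 8 lower. No interaction was called in the list, where 3 genes had an unadjusted p under 0.05, as did 318 of all 13000 genes.

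**Figure D5:**
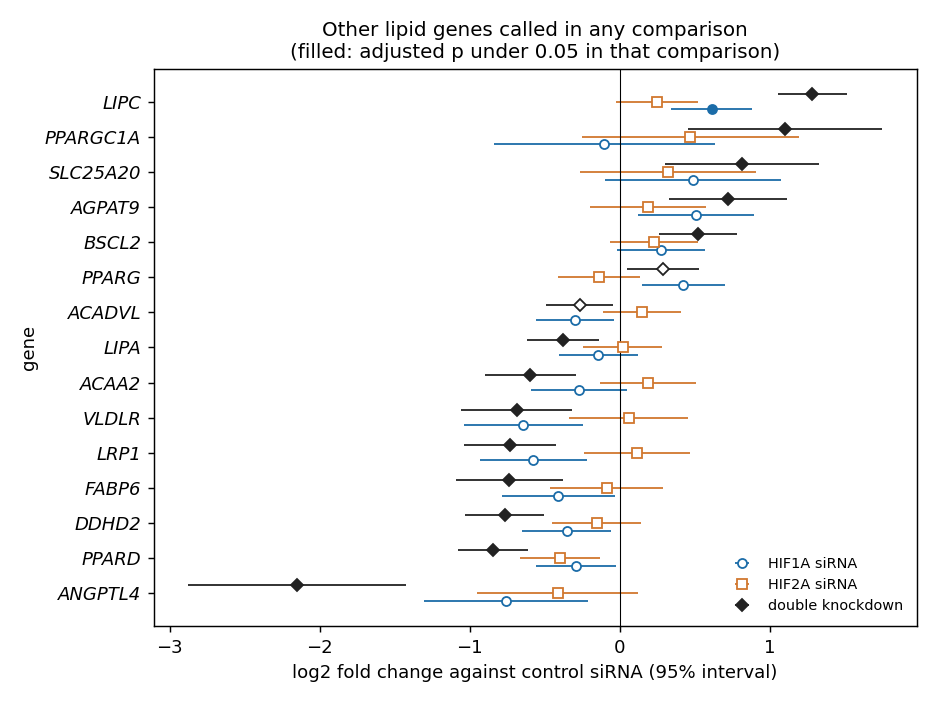
Log2 fold change against control siRNA (horizontal axis, with 95% intervals) of the other lipid genes called in any comparison, with circles for HIF1A siRNA, squares for HIF2A siRNA and diamonds for the double knockdown, filled where the edgeR adjusted p was under 0.05 in that comparison. SOAT2 is left out because its double knockdown libraries held 0 or 1 count. The double knockdown runs from -2.15 for ANGPTL4 to 1.28 for LIPC, and of the single knockdowns only LIPC with HIF1A siRNA is filled.

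The genes whose profile over the 12 libraries was most like that of the called members were ranked by Pearson's r of log2 CPM after centering within replicate number, among 13000 genes that share the same libraries and depth. For HILPDA they were BNIP3, a mitophagy receptor (r = 0.991), and the glycolytic enzyme genes PGK1 (r = 0.989) and GPI (r = 0.989). For MGLL they were CORO2B (r = 0.982), COPS7A (r = 0.969) and RASA3 (r = 0.969). For PLIN2 they were SYT13 (r = 0.993), CDCP1 (r = 0.988) and PAFAH1B2 (r = 0.984). These values describe likeness over 4 conditions, and the members had none of these genes in common.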

How the data were processed

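The authors trimmed adaptors with TrimGalore (0.3.3), aligned reads to hg19 with HISAT2 (2.05), dropped fragments with more than a single mapping using Picard (2.0.1), and deposited raw counts per gene from HTSeq (0.5.4p3) in intersection-strict mode, with no normalization. The polyA libraries were directional, and the strand setting of the counting is not given in the sources used here. Each of the 12 files holds 1 library over 23106 symbols.

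Counts were tested with the quasi-likelihood method of edgeR (4.0.16, R 4.3.3), with TMM normalization, edgeR's filter (10 counts in 3 libraries, 15 in total), replicate number fitted as a block and Benjamini-Hochberg adjusted p-values over every gene tested. The 3 conditions of the study were fitted on 9 libraries (12830 genes), and the double knockdown and the interaction on 12 (13000 genes). CPM used library totals scaled by TMM, and ratios within pairs and likeness added 0.5 CPM. Levels per length used the MANE Select transcript of GENCODE v44. The script was tested on simulated data with 200 changed genes. Of changes of 0.5 on the log2 scale it found 11.2% with HIF1A siRNA and 12.8% with HIF2A siRNA. It found 20.3% of them in the double knockdown against control and 3.8% in the interaction, so small changes would mostly go uncalled.

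The methods pair conditions by biological replicate. Across conditions, deviations from the condition means had correlations of 0.0991 to 0.813 in 18 pairs of same-numbered libraries. In 36 pairs with different numbers they ran from -0.724 to 0.527. The ranges overlap, and deviations cancel within a condition, so these sets of pairs are not independent. All replicates are of 1 line, and p-values measure the spread between these cultures. Named genes were the members, HIF1A and EPAS1, the other listed lipid genes called in any of 7 comparisons, and the 3 genes most like each called member. The members and lists were chosen with earlier results of these data known. Alternatives were DESeq2 (1.42.0) as test or for size factors, other filters, a threshold of 0.1, no block, other sets of libraries, and each library or replicate number left out.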

Additional observations from a re-analysis of the deposited data

How the results depend on the processing

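Without the replicate block, members called fell to 0 for HIF1A siRNA, 0 for HIF1A against HIF2A siRNA, 1 in the double knockdown against control, 0 when it was set against either single knockdown, and LPIN1 with HIF1A siRNA turned to 0.0016. Of the called members, only PLIN2 in the double knockdown against control kept its call. With no filter or with DESeq2, HIF2A siRNA called 1 member and HIF1A against HIF2A siRNA 2. With the compared libraries alone, HIF1A against HIF2A siRNA called 2 and the double knockdown against HIF2A siRNA 1. When libraries or replicate numbers were left out, members called ran from 0 to 1 for HIF2A siRNA, from 1 to 2 for HIF1A against HIF2A siRNA, and, for the double knockdown, from 0 to 2 beside HIF1A siRNA and from 1 to 3 beside HIF2A siRNA. Counts of members under the other alternatives were within 1.5 times those reported. The cause of these changes was not tested.

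Some changes that were not called took either sign over the alternatives, which include other tests and filters as well as left-out libraries. With HIF1A siRNA, PNPLA2 ran from -0.25 to 0.058, SCARB1 from -0.12 to 0.11 and LPIN1 from -0.30 to 0.14. With HIF2A siRNA, PLIN3 ran from -0.064 to 0.24, HILPDA from -0.011 to 0.073, PNPLA2 from -0.10 to 0.16, LIPE from -1.39 to 0.054 and LPIN1 from -0.12 to 0.44. In the double knockdown, PNPLA2 ran from -0.16 to 0.062, SCARB1 from -0.066 to 0.11 and LPIN1 from -0.048 to 0.31. Against HIF1A siRNA, HILPDA ran from -0.19 to 0.027 and CPT1A from -0.13 to 0.17. In the interaction, MGLL ran from -0.45 to 0.055 and CPT1A from -0.24 to 0.037. No called change took the other sign in any alternative. Counts of 3 to 22 limit LIPE and of 34 to 91 limit CPT1A. Genes called over the whole table fell from 1336 to 195 in the double knockdown and from 150 to 41 with HIF1A siRNA without the block.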
